A study of Saccharomyces cerevisiae with 11 samples.

Results

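The 10 genes described here encode RNA-binding proteins of growing and meiotic budding yeast: RIM4, PES4, MIP6, WHI3, WHI4, NGR1, PAB1, PUB1, NAB6 and YGR250C, which is also called RIE1. They were taken by gene name from the deposited SK1 annotation of 6707 genes, YGR250C by its systematic name. In the deposited table of candidate open reading frames (ORFs) they hold 458 of 192230 candidates. The set was chosen by gene name with scores and start-site evidence from these data already known, in particular the rated extensions of NAB6 and YGR250C, so its counts are descriptions, without a test.

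Ribosome-protected RNA was sequenced from yeast of the efficiently sporulating SK1 strain, in cells exposed to lactimidomycin (LTM) at 3 µM, which stops ribosomes as they leave a start codon and so marks where translation begins. The 11 libraries, 1 of each kind, all received the drug. One came from a MATa/a strain 4.5 h after transfer to sporulation medium, a mating type in which cells do not enter meiosis. The others came from vegetative cultures in exponential growth (OD600 0.6) or at saturation (OD600 10) and from sporulating cultures at 0, 1.5, 3, 4.5, 6, 8, 10 and 22 h. The authors combined libraries into 1 score per candidate ORF, from 0 to 1, and the table has 0 columns of single libraries. The depth of each library is therefore unknown, no value has a replicate, and use of a start in growth and in meiosis cannot be told apart. A candidate with a score above 0.5, the higher of 2 cut-offs in the deposited notes, is called rated. The intervals below are exact (Clopper-Pearson) 95% intervals that treat candidates as the unit and cover counting error only, although candidates of 1 gene share a transcript.

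RNA-binding proteins of this kind mostly recognise mRNA through RNA recognition motifs and set when and where the message is translated, stored or degraded. In yeast they act on the decision to divide, on stress granules and on the staged translation of meiosis. Ribosomes scan the mRNA leader from its cap and may begin at an AUG or, less efficiently, at a near-cognate codon, which differs from AUG in 1 base. An upstream ORF starts in the leader, a start-overlapping ORF starts there and runs over the annotated start in another frame, and an extension starts there in the frame of the protein and adds residues to its N-terminus.

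Of the 458 candidates 60 were rated (13.1%), against 13.5% of the whole table, and rated starts in the leaders were nearly all near-cognate. Of 47 such starts in 8 genes, 46 were near-cognate and 1 was an AUG (97.9% near-cognate), against 66.8% of 8281 rated leader starts of the whole table. Before any rating, 116 of the 125 leader candidates of the 10 genes were near-cognate (92.8%), against 78.0% in the whole table. They comprised 38 upstream ORFs, 7 start-overlapping ORFs and 2 extensions. The letters around the starts that carry the results are given first, 12 bases before the codon, the codon in capitals and 15 bases after it. They were read from RefSeq's S288C genome (R64), with T for U, at the same distance from the annotated start as in SK1. Of the 47 starts, 34 had the same codon there, and in all 34 the reading frame had the same number of codons as in SK1. The other 13, namely 7 in WHI4, 3 in WHI3 and 3 in PAB1, had another codon at that distance and are not printed. The first set shows the extension starts of NAB6, YGR250C and PES4, each followed by the annotated AUG of the same gene.
NAB6 UUG extension (plus strand, chrXIII:34168-34197): aggaaggggtttTTGatcggctcgaacaag
NAB6 annotated AUG (plus strand, chrXIII:34231-34260): gaggattccaatATGtcaaattccaattca
YGR250C CUG extension (minus strand, chrVII:993591-993620): ttacaaggcaccCTGattaaaaatccaaaa
YGR250C annotated AUG (minus strand, chrVII:993504-993533): gaagtttcgaggATGaatattgcagaagaa
PES4 UUG extension (plus strand, chrVI:199796-199825): attattcattaaTTGaacgaaccaataata
PES4 ACG extension (plus strand, chrVI:199814-199843): gaaccaataataACGagagaatcagtatca
PES4 annotated AUG (plus strand, chrVI:199862-199891): acaagaggaaacATGtattctatttcaaac

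The second set shows, from the leaders of RIM4, WHI3, WHI4, NGR1, PUB1 and YGR250C, starts with high scores for their gene or class, and the annotated AUG of RIM4 for comparison.
RIM4 UUG upstream ORF, 68 nt before the AUG (plus strand, chrVIII:56569-56598): acatactctctaTTGtttgttttttgcctg
RIM4 UUG start-overlapping ORF, 64 nt before the AUG (plus strand, chrVIII:56573-56602): actctctattgtTTGttttttgcctgctca
RIM4 annotated AUG (plus strand, chrVIII:56637-56666): gcttgttgaaacATGaaaaccgaaatcagc
WHI3 AUU upstream ORF, 121 nt before the AUG (minus strand, chrXIV:269697-269726): actgatcatatcATTtcaagttaaaagtct
WHI4 UUG upstream ORF, 48 nt before the AUG (minus strand, chrIV:56377-56406): caggaaccttagTTGccacatctacgctga
NGR1 CUG upstream ORF, 386 nt before the AUG (plus strand, chrII:647488-647517): ttgtaattaaatCTGgttatcataccctgt
NGR1 AUC start-overlapping ORF, 29 nt before the AUG (plus strand, chrII:647845-647874): atatccttcgccATCgatttttgcctgaaa
PUB1 UUG start-overlapping ORF, 13 nt before the AUG (plus strand, chrXIV:602882-602911): cacatctactctTTGttcgattccaatgtc
YGR250C GUG start-overlapping ORF, 32 nt before the AUG (minus strand, chrVII:993536-993565): aaaacattatacGTGaaagacaaaccgcat

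**Figure D1:**
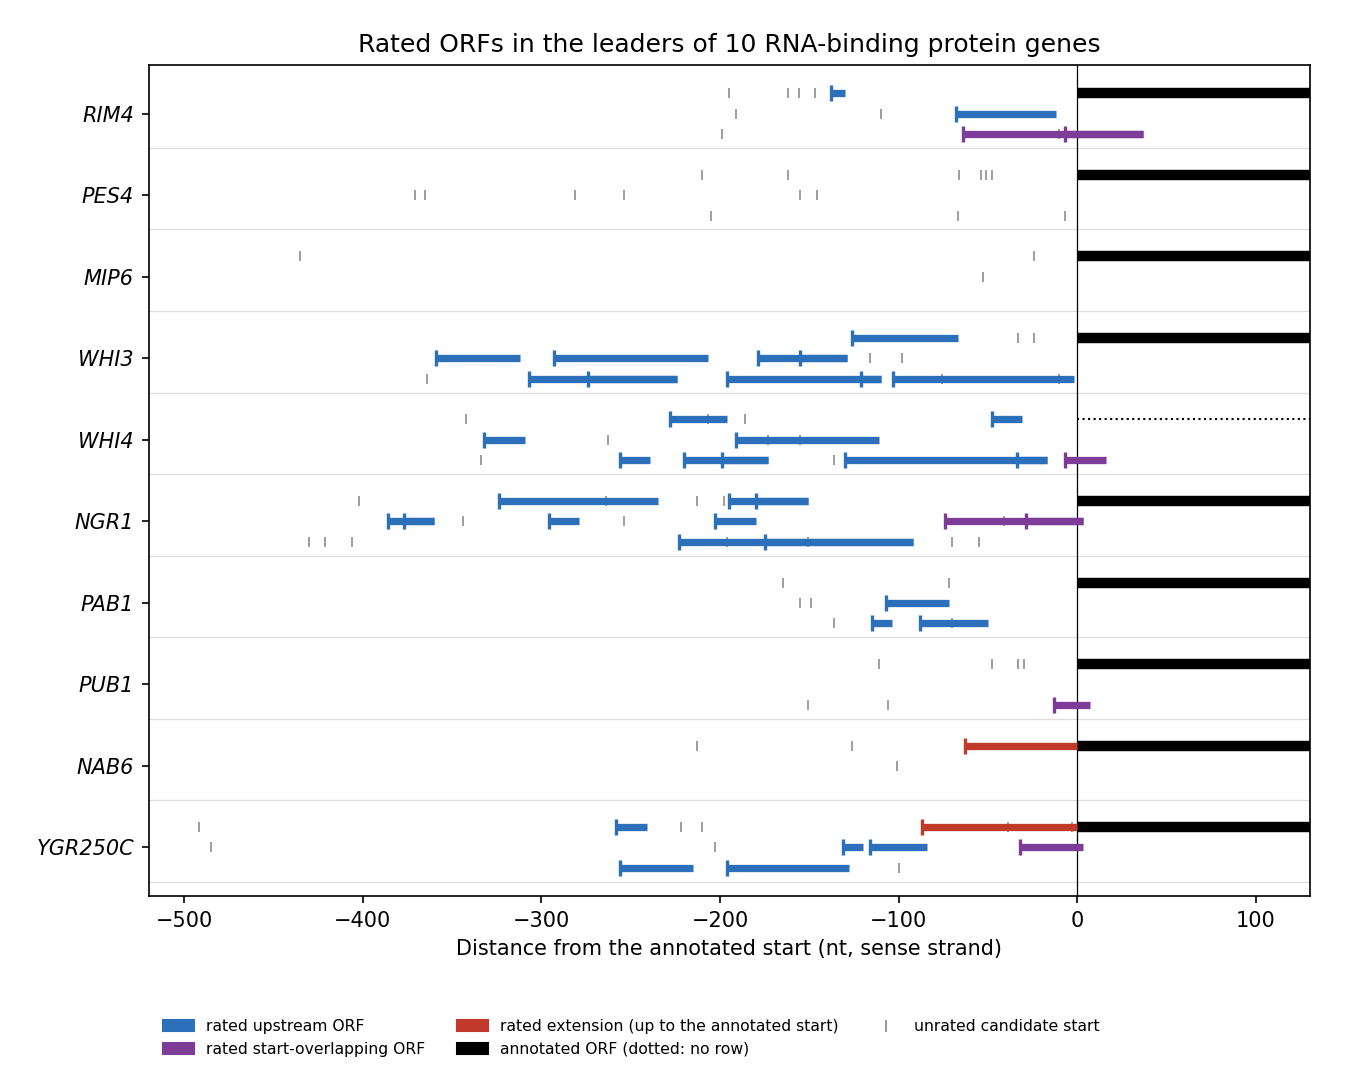
Leaders of the 10 genes, with the distance from the annotated start in nucleotides on the horizontal axis. The 3 lines of a gene are reading frames, the upper line being that of the protein. Coloured bars run from the start to the stop of each rated ORF (an extension up to the annotated start), with a tick at each rated start where ORFs share a stop, and grey ticks are unrated candidates. WHI3 has 10, WHI4 9 and NGR1 9 rated upstream ORFs, while PES4 and MIP6 have no rated start in the leader.

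The annotated proteins were rated wherever they were in the table. WHI4 had no annotated ORF among the rows analysed here, and the other 9 genes were rated in 9 of 9 cases (interval 66.4 to 100%), against 93.3% of 4814 annotated ORFs of the whole table. Annotated ORFs trained the score, so this is no independent control. Their scores ran from 0.768 in YGR250C to 0.980 in PAB1, with a median of 0.953, against a median of 0.896 over all annotated ORFs. The strength of the start codon in the LTM footprints, called LTM evidence here, is a regression statistic and not a read count, and how it scales between genes is not stated. It had a median of 2297 at the 9 annotated starts and of 2956 over all annotated starts. A second data set named CHX in the deposited notes, which do not describe it further, gave the 9 genes a median regression value of 1.43 and all annotated ORFs one of 0.295. The part of this level in the number of rated starts was not tested.

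RIM4, the meiotic repressor that forms amyloid-like assemblies and holds back the translation of B-type cyclin CLB3 until late in meiosis, carried its strongest LTM evidence in front of the protein. A UUG that lies 68 nt before the AUG, and opens an upstream ORF of 18 codons (56925 to 56981 of SK1 chromosome 8), had an LTM evidence of 9769. The annotated AUG of RIM4 (56993) had 5770, so that the UUG reached 1.69 times its evidence. Of the 29 rated upstream ORFs in the 9 genes with an annotated ORF in the table this was the only one above the annotated start (3.45%), where 16.8% of rated upstream ORFs in the whole table were above it.

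The UUG of RIM4 scored 0.943, the highest of all 38 rated upstream ORFs, and the annotated ORF 0.968. In the CHX data its regression value was 23.8, against 30.7 for the annotated ORF, a value that itself exceeded that of 99.6% of annotated ORFs. The CHX start evidence, a separate value and the counterpart of LTM evidence, lay further apart, at 169 for the UUG and 664 for the annotated AUG. The other rated starts of the RIM4 leader were also UUG codons. The one 64 nt before the AUG starts only 4 nt after the first, in another frame, and runs for 33 codons over the annotated start. It had a score of 0.838 and an LTM evidence of 778, with 12.6 times as much at the UUG 4 nt before it. Another UUG, 7 nt before the AUG, ends at the same stop codon and scored 0.639, and a UUG 138 nt before the AUG opens an ORF of 2 codons and scored 0.787. RIM4 thus had 4 rated leader starts, all of them UUG. None of the 9 upstream candidates was an AUG, and the RIM4 protein itself is 718 codons long in SK1 and 713 in S288C.

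PES4 and MIP6, related proteins that bind mRNA, PES4 with a part in the timed translation of meiotic transcripts and MIP6 with a link to the export receptor Mex67, had no rated start in the leader. Of 9 upstream candidates in PES4 0 were rated (interval up to 33.6%), and of 3 in MIP6 also 0 (interval up to 70.8%). These numbers are too small to separate them from the 22.0% rated over all upstream candidates. The highest upstream scores were 0.378 in PES4 and 0.375 in MIP6, although 4 of the 9 candidates in PES4 and 2 of the 3 in MIP6 were AUG codons.

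PES4 came close to having a rated extension. Its ACG 48 nt before the AUG, which would add 16 codons, scored 0.491, just under the cut-off, and its UUG 66 nt before the AUG, which would add 22, scored 0.369. Their LTM evidence was 44.4 and 46.0, against 1621 at the annotated AUG, or 0.0274 and 0.0284 times that start. The CHX regression value was 0.658 for the ACG, 0.361 for the UUG and 0.931 for the AUG. A pair of AUA codons between the 2 starts, 51 and 54 nt before the AUG, scored 0.0579 and 0.0559. The annotated ORF of PES4 was not the strongest ORF with its stop codon in the CHX data, at a fraction of 0.461 of the strongest, a truncation that starts at an AGG. In S288C all 4 extensions kept an open frame of the same length.

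MIP6 had the second highest LTM evidence of the 9 annotated starts, 9894, and a score of 0.958. Its one other rated ORF was an AUG 19 nt inside the coding region, out of frame and only 2 codons long (131119 to 131127 of SK1 chromosome 8), with a score of 0.826 and an LTM evidence of 77.5, or 0.00784 times that of the annotated start. The deposited notes caution that false positives are very frequent among ORFs of this class, which they put down to reads of elongating ribosomes.

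WHI3 and WHI4, paralogs of which WHI3 holds the mRNA of the G1 cyclin CLN3 in the cytoplasm and so sets the size at which cells divide, had the most crowded leaders together with NGR1. In WHI3 10 of 15 upstream candidates were rated (66.7%, interval 38.4 to 88.2%), in WHI4 9 of 17 (52.9%, interval 27.8 to 77.0%) and in NGR1 9 of 22 (40.9%, interval 20.7 to 63.6%), against 22.0% of 31402 upstream candidates in the whole table. Of 4759 genes with an upstream candidate, 0.525% had at least 10 rated upstream ORFs and 1.01% at least 9. The medians over these genes were 1 rated upstream ORF and 5 upstream candidates, fewer candidates than the 15, 17 and 22 of WHI3, WHI4 and NGR1.

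In WHI3 the rated upstream ORFs were 3 to 33 codons long, started 103 to 359 nt before the AUG and ended at 7 different stop codons. Their start codons were UUG in 5 cases, CUG in 2, AUA in 2 and AUU in 1. The highest score, 0.848, belonged to the AUU 121 nt before the AUG, which opens an ORF of 3 codons and had an LTM evidence of 463. The most LTM evidence, 1084, was at a UUG 293 nt before the AUG with an ORF of 28 codons and a score of 0.809, which is 0.561 times the 1934 of the annotated start. A UUG 155 nt before the AUG (score 0.689) and a CUG 307 nt before it (score 0.686) had 0.135 and 0.228 times the evidence of the annotated start. The UUG 196 nt before the AUG (score 0.643) stood out in the other data set: its CHX regression value was 0.379, against 0.564 for the annotated ORF, while its LTM evidence was only 28.8. It shares its stop codon with the AUU, whose CHX value was 0.249. The remaining 5 scored between 0.522 and 0.633. The 2 candidate extensions of WHI3 were far from rated, the higher at 0.0328.

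WHI4 had no annotated ORF in the rows analysed here, so its leader starts cannot be set against the start of the protein. Its highest in-frame candidate was an ACG inside the coding region with a score of 0.115. The highest LTM evidence in the gene, 407, was at a UUG 130 nt before the annotated position, with an ORF of 37 codons and a score of 0.859. A UUG 256 nt before it, with an ORF of 5 codons, scored 0.861 and had the higher CHX regression value, 1.67 against 0.209. An AUA, a CUG and a further UUG, 199, 191 and 48 nt before the start, scored 0.839, 0.832 and 0.815. The other 4 rated upstream ORFs, at an AGG, an ACG and 2 CUG codons, scored between 0.519 and 0.657, and a start-overlapping ORF from an AUU scored 0.629. In the WHI3 and WHI4 leaders the 32 upstream candidates included 0 AUG codons.

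NGR1, an RNA-binding protein that restrains growth and promotes the decay of the porin mRNA POR1, had 9 rated upstream ORFs with 5 to 43 codons, 175 to 386 nt before the AUG, in a leader that again held 0 AUG candidates. Scores were close together at the top: 0.819 for a CUG 386 nt before the AUG, 0.817 for an AUA at 324 nt, 0.817 for an AUU at 296 nt, 0.801 for a CUG at 223 nt and 0.779 for a CUG at 203 nt. None had much LTM evidence beside the 2297 of the annotated AUG, since the 9 ranged from 1.30 to 67.7, or from 0.000567 to 0.0295 times that start. The AUU at 296 nt had the highest CHX regression value of these, 1.15, which is 0.405 times that of the annotated ORF. Both rated start-overlapping ORFs, from an AUC 29 nt and an AUU 74 nt before the AUG, end at the same stop codon just inside the coding region and scored 0.833 and 0.783.

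**Figure D2:**
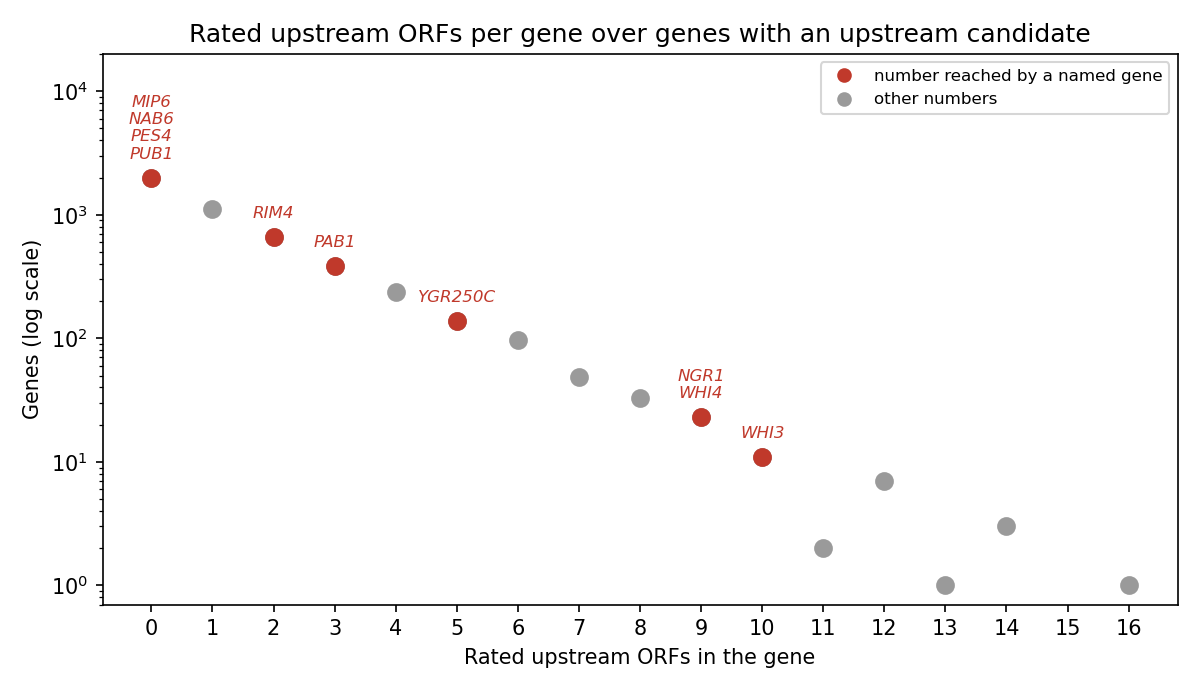
Number of genes (vertical axis, log scale) by their number of rated upstream ORFs (horizontal axis), over the 4759 genes with an upstream candidate. The numbers reached by the 10 genes are in red with their names: WHI3 has 10, NGR1 and WHI4 have 9, and MIP6, NAB6, PES4 and PUB1 have none, as do 1989 genes in all.

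PAB1, the poly(A)-binding protein that joins the tail of mRNA to the initiation machinery, had the highest LTM evidence of the 9 annotated starts, 17987, above that of 91.0% of all annotated starts. Of its 9 upstream candidates 3 were rated (33.3%, interval 7.49 to 70.1%), an interval that holds the 22.0% of the whole table. A UUG 107 nt before the AUG, with an ORF of 11 codons, scored 0.871 and had an LTM evidence of 1013, or 0.0563 times that of the annotated AUG. A CUG 88 nt before the AUG scored 0.807, and an AUA 115 nt before it scored 0.639.

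PUB1, an abundant protein that binds poly(A)+ RNA and stabilises mRNAs including some with upstream ORFs, had no rated upstream ORF of its own. Its 3 candidates, among them an AUG with a score of 0.347, reached at most 0.401. A UUG 13 nt before the AUG opens a start-overlapping ORF of 6 codons with a score of 0.668 and an LTM evidence of 147, against 4687 at the annotated start. Its 3 candidate extensions scored from 0.00559 to 0.0121.

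NAB6, a putative RNA-binding protein, and YGR250C, a putative RNA-binding protein seen in stress granules, were the 2 genes with a rated extension. The 13 candidate extensions lay in 5 genes and all were near-cognate, and 2 of the 13 were rated (15.4%, interval 1.92 to 45.4%), against 4.57% of all extensions and 3.64% of near-cognate ones. Since both genes were chosen for these extensions, nothing is read from that share.

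The UUG of NAB6, which adds 21 codons to 1134 (start at 41961 of SK1 chromosome 13), had an LTM evidence of 1148, against 1858 at the annotated AUG, or 0.618 times as much. In the CHX data the order was the other way: the regression value was 0.244 for the UUG form and 0.147 for the annotated form, 1.66 times as high, and the UUG form was the strongest of all ORFs with this stop codon. The score was 0.868 for the UUG and 0.833 for the AUG. NAB6 had only 3 upstream candidates, with scores of at most 0.433.

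The CUG of YGR250C, which adds 29 codons to 781 (start at 1011262 of SK1 chromosome 7, minus strand), had an LTM evidence of 1410, against 249 at the annotated AUG, or 5.67 times as much. It was the only extension of the 10 genes with more evidence than the annotated start, which held for 18.8% of rated near-cognate extensions in the whole table. The annotated AUG ranked low within the table, with an evidence above that of only 17.3% of annotated starts, although how this evidence scales between genes is not stated. The CHX regression values did not separate the 2 forms, at 0.208 for the CUG and 0.209 for the AUG. Neither was the strongest ORF with this stop codon, at fractions of 0.722 and 0.725. The strongest, at 0.288, was a truncation 822 nt inside the coding region with a score of 0.0571. The CHX start evidence was 7.44 for the CUG and 5.35 for the AUG. An AGG directly before the AUG also had a CHX regression value of 0.204, and a CHX start evidence of 9.77. Its LTM evidence was only 0.00166 and its score 0.0275. An AUU between the CUG and the AUG, which would add 13 codons, scored 0.0905, with a CHX regression value of 0.0104 and an LTM evidence of 11.4.

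The leader of YGR250C also held 5 rated upstream ORFs among 11 candidates (45.5%, interval 16.7 to 76.6%), against 22.0% in the whole table, a share within that interval. They were 2 AUA, 2 GUG and 1 AUG, the only rated AUG in any of the leaders. That AUG, 256 nt before the annotated start, scored 0.536 with an LTM evidence of 4.72. An AUA that starts 2 nt before it, in another frame, scored 0.678 with 14.3. A GUG 32 nt before the annotated AUG, downstream of the CUG, opens a start-overlapping ORF of 11 codons that scored 0.820, higher than the 0.768 of the annotated ORF, although its LTM evidence of 24.2 was 0.0974 times that of the annotated start.

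**Figure D3:**
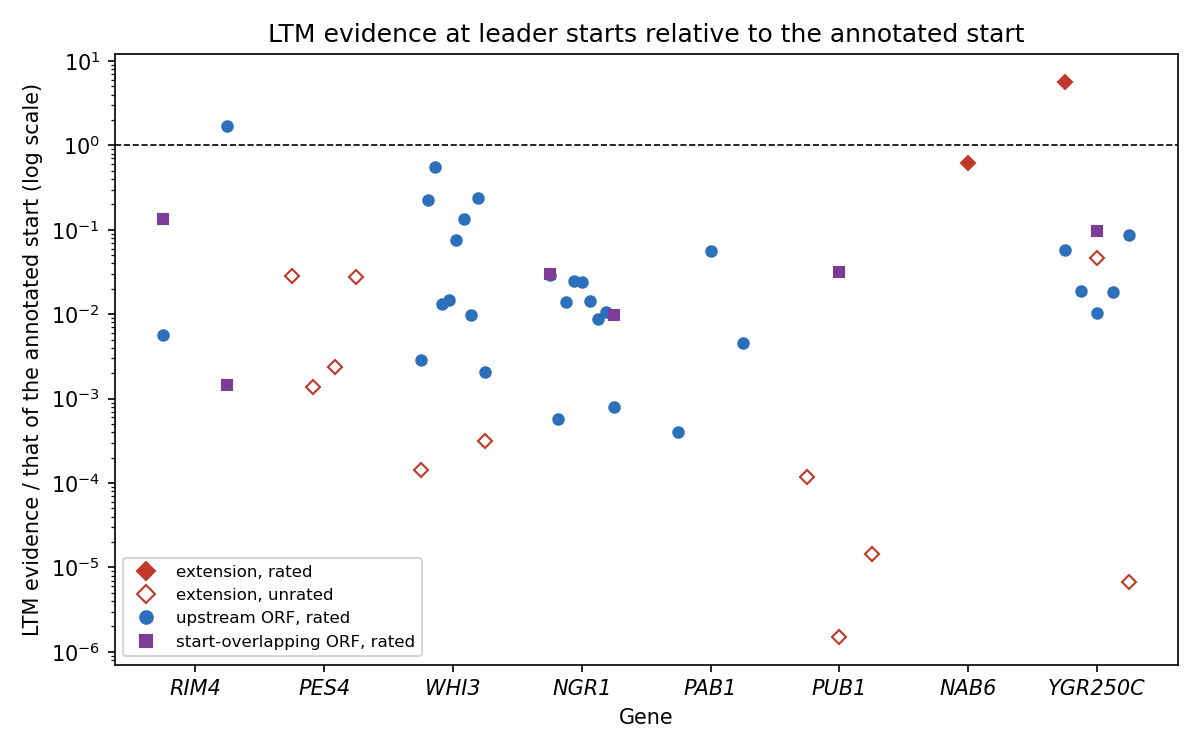
LTM evidence of starts in the leader divided by that of the annotated start of the same gene (vertical axis, log scale), by gene. Filled symbols are rated and open symbols unrated, and unrated ORFs are shown for extensions alone. The CUG extension of YGR250C (5.67) and the UUG upstream ORF of RIM4 (1.69) lie above the dashed line at 1, and NAB6 lies at 0.618. WHI4 has no annotated start in the table and MIP6 no rated start in its leader.

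Over the 10 genes, 38 of 101 upstream candidates were rated (37.6%, interval 28.2 to 47.8%), against 22.0% of the whole table. Of the 38, 28 lay in WHI3, WHI4 and NGR1. Without these 3 genes, a setting chosen after their values were seen, 10 of 47 were rated (21.3%, interval 10.7 to 35.7%), near the background. Of all 10 genes, 4 had no rated upstream ORF, as did 41.8% of the 4759 genes with an upstream candidate.

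By codon, 9 of 10 CUG and 12 of 20 UUG upstream candidates were rated, where the whole table had 26.2% and 33.1%. Of the 9 CUG starts 3 were in NGR1, 3 in WHI4, 2 in WHI3 and 1 in PAB1. AUA was rated in 8 of 18 and AUU in 4 of 12 cases, against 16.7% each in the whole table. GUG was rated in 2 of 5 cases, against 20.6%, while AUC and AAG were rated in 0 of 10 cases each, against 10.8% and 4.07%. AUG was rated in 1 of 9 cases (interval 0.281 to 48.2%), against 29.3%, a share within that interval. Counts of single codons are small, and no deficit of AUG is read from them. Near-cognate candidates were rated in 37 of 92 cases (40.2%, interval 30.1 to 51.0%), against 19.4% in the whole table. In the list of other RNA-binding protein genes described below the share was 30.8% (76 of 247), which lies within that interval. Near-cognate starts made up 97.4% of the rated upstream ORFs here and 65.2% in the whole table. The near-cognate total and the counts of UUG, CUG and AUU rested largely on WHI3, WHI4 and NGR1. Without these 3 genes near-cognate candidates were rated in 9 of 38 cases (23.7%, interval 11.4 to 40.2%), near the background. UUG was then rated in 3 of 9 cases, CUG in 1 of 2 and AUU in 0 of 4. The share of AUA changed little, with 3 of 7 rated, and both rated GUG starts remained, among 3 candidates. The AUG count did not depend on these 3 genes, which held 0 AUG upstream candidates. AUG codons were also scarcer among the candidates, 9 of 101 here and 8211 of 31402 in the whole table.

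The rated upstream ORFs of the 10 genes had a median length of 11.5 codons and started a median of 195.5 nt before the annotated start. In the whole table these medians were 10 codons and 124 nt. Without WHI3, WHI4 and NGR1 the medians of the other 10 were 10.5 codons and 123.5 nt, so that the longer distance rested on these 3 genes. The median ratio of LTM evidence to the annotated start was 0.0149 over 29 rated upstream ORFs here and 0.0213 over 6288 in the whole table. An A at the base 3 positions before the codon, the base most favoured in front of yeast starts, was present in 14 of the 25 rated upstream starts located in S288C (56.0%, interval 34.9 to 75.6%), against 40.5% of 5465 in the whole table, a share within that interval. Among unrated upstream starts it was present in 16 of 48 here (33.3%) and in 34.7% in the whole table. At the annotated starts it was present in 7 of 9 here and in 64.3% of rated annotated starts in the whole table.

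In the other classes the shares lay on either side of the whole table's or could not be set apart from it. Start-overlapping ORFs were rated in 7 of 11 cases (63.6%, interval 30.8 to 89.1%), against 20.2%. All 11 were near-cognate, and 16.8% of near-cognate ones were rated in the whole table. In none of the 6 rated ones with an annotated ORF in the table did LTM evidence exceed that of the annotated start, against 13.3% of rated near-cognate start-overlapping ORFs. Without WHI3, WHI4 and NGR1, 4 of 7 start-overlapping ORFs were rated (57.1%, interval 18.4 to 90.1%). That interval holds the 20.2% of all start-overlapping ORFs and lies just above the 16.8% of near-cognate ones. Out-of-frame internal ORFs were rated in 4 of 270 cases (1.48%, interval 0.405 to 3.75%), against 10.3%. Apart from that of MIP6, these were in YGR250C, RIM4 and NAB6, with scores from 0.507 to 0.589. Truncations, which begin inside the coding region in its own frame, were rated in 0 of 54 cases (interval up to 6.60%), which does not set them apart from the 2.71% of the whole table, and the highest scored 0.122, an AUG in PES4.

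**Figure D4:**
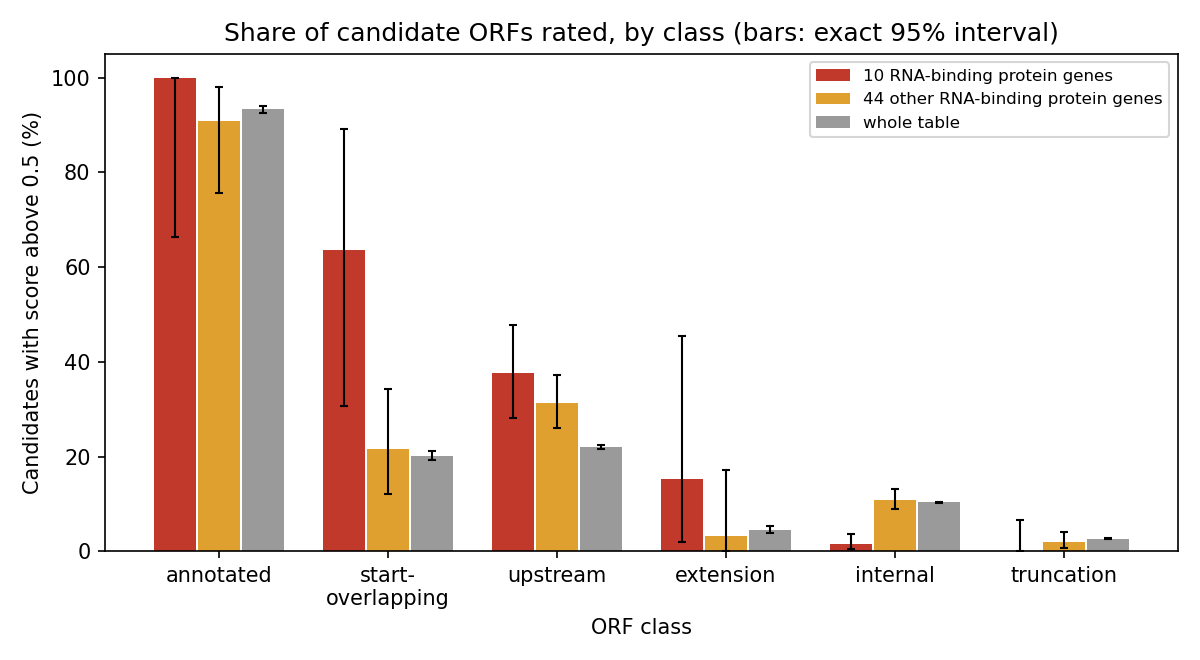
Share of candidate ORFs with a score above 0.5 (vertical axis, %) by class, for the 10 genes, 44 other RNA-binding protein genes and the whole table, with exact 95% intervals. The 10 genes stand at 37.6% of upstream ORFs, against 22.0% in the whole table, and at 1.48% of internal ORFs, against 10.3%.

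A list of 44 other RNA-binding protein genes, among them the PUF family, which binds messages for decay and localisation, and the splicing and export factors of the nucleus, was described in the same way. In it 87 of 277 upstream candidates were rated (31.4%, interval 26.0 to 37.2%), against 22.0% of the whole table. Near-cognate upstream candidates of the list were rated in 76 of 247 cases (30.8%, interval 25.1 to 36.9%), against 19.4% of the whole table. Of the 87 rated upstream ORFs, 76 were thus near-cognate. A raised near-cognate share was therefore not particular to the genes chosen here. Of the 34 genes with an upstream candidate 8 had no rated one, and the most, 9, were in SSD1, a protein that binds mRNAs of the cell wall. SSD1 was named after its values were seen. Extensions were rated in 1 of 30 cases (3.33%), against 4.57%. It was an AUA of RNA15, a subunit of the cleavage factor that forms mRNA ends, which adds 33 codons, with a score of 0.594 and 0.0977 times the LTM evidence of the annotated start. Internal ORFs were rated in 98 of 901 cases (10.9%), against 10.3%.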

How the data were processed

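The authors' rating table gives 1 value per candidate ORF over pooled libraries, and single libraries have 0 columns in it. The submitters' processing notes name bcl2fastq 2.17, CASAVA and Bowtie2, whose settings were not stated. Per the deposited notes, regressions on LTM footprints and on a data set named CHX fed a random forest, whose score from 0 to 1 is used here. The deposited LTM evidence and CHX regression values are scores too, and nothing says how they scale with depth or length. They were compared mainly within a gene. The deposited fraction relative to the strongest ORF at a stop codon was read for NAB6, PES4 and YGR250C. The CHX start evidence was read for RIM4 and YGR250C. Column names end in nosat, which is not explained, so which libraries entered is uncertain.

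The 10 genes and the 44 others were chosen with earlier results of these data known. All 10 genes are named, with their rated ORFs and highest-scoring others. SK1 coordinates count from 1 and include both the start and the stop codon. They were never placed on S288C (R64), where starts were found by distance from the annotated start. No upstream candidate reached a neighbouring annotated gene. Cut-offs of 0.1, 0.8 and 0.9, the deposited rating, and each start counted once were alternatives. Counting was tested on simulated data. Python 3.11.15, pandas 2.3.3 and SciPy 1.17.1 were used.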

Additional observations from a re-analysis of the deposited data

How the results depend on the processing

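Counts moved with the cut-off. They are out of 101 upstream, 13 extension, 54 truncation, 270 internal and 9 annotated candidates of the 10 genes. In the 44 other genes they are out of 277 upstream and 30 extension candidates. Shares of the whole table are given here at 0.5 only, so the counts at other cut-offs are not set against a background. At a score above 0.1, 100 upstream ORFs, 4 extensions, 4 truncations and 251 internal ORFs of the 10 genes passed, in place of 38, 2, 0 and 4 above 0.5. Above 0.8 the counts were 14 upstream and 1 internal ORF, with 2 extensions, 0 truncations and 8 annotated ORFs. Above 0.9 they were 1 upstream ORF, 0 extensions, 0 internal ORFs and 5 annotated ORFs. In the 44 other genes the 87 upstream ORFs became 270, 32 and 7 above 0.1, 0.8 and 0.9, and the 1 extension became 8, 0 and 0. The deposited rating above 0.5 and counting each start once changed none of these counts. Without WHI3, WHI4 and NGR1, an alternative chosen after seeing the data, the counts were 10 upstream ORFs, 9 of them near-cognate in place of 37, and 4 start-overlapping ORFs in place of 7. Without WHI3 alone, 28 of 86 upstream candidates were rated (32.6%, interval 22.8 to 43.5%), against 22.0% of the whole table. Leaving out the 3 genes moved the median distance of rated upstream ORFs to 123.5 nt from 195.5 nt, the median length to 10.5 codons from 11.5 and the median ratio to 0.0187. The median ratio of LTM evidence of rated upstream ORFs, 0.0149, was 0.0147 for near-cognate starts, 0.0190 for the single AUG and 0.00011 over all upstream candidates. No paired analysis was possible because no column belongs to a single library. For starts 2 to 5 nt apart, as in RIM4, WHI3, NGR1 and YGR250C, the read offset that separates them is not given in the sources used here.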
